A study of Mus musculus with 14 samples.

Results

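H2AK119ub sites of mouse cardiac cells were compared between 3 libraries prepared after paraquat (Damage) and 3 prepared after PBS (Homeostasis). The sites are the 23134 peaks in these 6 H2AK119ub lists, of 39832 peaks in the 12 peak lists of the series, and they were taken by the treatment and the immunoprecipitated protein named in the labels. The cells came from C57BL/6 mice aged 6 to 8 weeks and were enriched by magnetic sorting for cardiac cells with Sca1 and without CD45 on their surface (Sca1+CD45-). Each Damage mouse was injected once into the abdomen with paraquat in PBS at 20 mg/kg, and Homeostasis mice had PBS alone. Paraquat is a herbicide whose redox cycling in cells produces superoxide. The interval between the injection and the harvest, the number of mice behind a library and any pooling of mice could not be taken from the labels. A culture step at 3% oxygen is also described, and whether it came before the crosslinking is not said. Nothing in the labels says that the 3 libraries of a group came from separate mice, so p-values measure the spread between libraries, which may be technical. A list of histone-mark positions does not report expression, so the identity of the sorted cells could not be checked against marker genes.

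H2AK119ub is a single ubiquitin joined to a lysine of histone H2A. It is written by Polycomb repressive complex 1, whose RING1 or RNF2 subunit is the ubiquitin ligase and whose BMI1 subunit assists it, and it is removed by H2A deubiquitinases. The mark is known for covering silent developmental genes, such as the HOX clusters, and for its part in keeping the Cdkn2a cell cycle inhibitor locus off in dividing progenitors.

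Promoter sequence could be read for the few sites that lay against a transcription start, and it shows what kinds of sequence the lost sites held there. Of 32851 RefSeq promoters (GRCm38.p6, 250 bases before to 50 bases after the start), none was touched by a peak of Damage replicate 1, 2 or 3. Peaks of the Homeostasis libraries touched 8, 19 and 15 promoters, through 8 of 2000 peaks (0.4%), 18 of 13487 (0.133%) and 15 of 7523 (0.199%). In all, 23 promoters were touched in at least 1 Homeostasis library, 11 in at least 2 and 8 in all 3. The 4 promoters below are those among the 11 with the most bases inside peaks. Each run gives the 250 bases before the start, 5′ to 3′ on the strand of the gene, with the bases that lie in a Homeostasis peak in capitals. They are the lncRNA Gm46404 (chr13:23445972-23446221, minus strand), Polr3e (chr7:120917528-120917777, plus strand), which encodes a subunit of RNA polymerase III, Tpcn2 (chr7:145284012-145284261, minus strand), which encodes a cation channel of lysosomes, and the lncRNA Gm40204 (chr4:92241514-92241763, plus strand).
Gm46404: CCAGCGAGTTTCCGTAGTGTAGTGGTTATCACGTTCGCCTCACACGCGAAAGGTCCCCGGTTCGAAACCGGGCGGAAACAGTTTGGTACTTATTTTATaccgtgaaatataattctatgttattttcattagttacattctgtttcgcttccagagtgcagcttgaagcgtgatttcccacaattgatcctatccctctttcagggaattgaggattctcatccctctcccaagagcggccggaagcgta
Polr3e: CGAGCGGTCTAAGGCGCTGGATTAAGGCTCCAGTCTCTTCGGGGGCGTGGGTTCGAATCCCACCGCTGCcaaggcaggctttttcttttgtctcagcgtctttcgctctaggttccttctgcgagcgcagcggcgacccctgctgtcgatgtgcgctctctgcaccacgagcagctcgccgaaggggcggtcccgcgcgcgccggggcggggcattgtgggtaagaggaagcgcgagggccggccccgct
Tpcn2: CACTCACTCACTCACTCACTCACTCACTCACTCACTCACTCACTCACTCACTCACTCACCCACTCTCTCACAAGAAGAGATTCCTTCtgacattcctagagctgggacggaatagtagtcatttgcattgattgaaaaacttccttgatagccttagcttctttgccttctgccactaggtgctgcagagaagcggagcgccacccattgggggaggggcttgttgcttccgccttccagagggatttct
Gm40204: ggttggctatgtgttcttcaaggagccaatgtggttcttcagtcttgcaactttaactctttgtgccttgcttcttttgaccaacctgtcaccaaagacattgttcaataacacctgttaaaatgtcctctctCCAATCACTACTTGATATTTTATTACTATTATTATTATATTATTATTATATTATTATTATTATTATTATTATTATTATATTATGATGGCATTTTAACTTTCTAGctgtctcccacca
The Gm46404, Polr3e and Tpcn2 peaks were in all 3 Homeostasis libraries and the Gm40204 peak was in 2. The capitals of Gm46404 and Polr3e lie on the tRNA genes n-TVcac9 and n-TLaag4, and both hold the letters GTTCNANNC on either strand, the core of the B box inside tRNA genes. These letters were in 3063 of all 32851 promoters (9.32%) and in 2 of the 8. Of the other motifs searched on either strand, the E-box CACGTG was in 7.15% of all promoters and the YY1 core GCCATNTT in 6.05%, and among the 8 each was found in Polr3e alone. The capitals of Tpcn2 hold a run of 59 bases that repeats a unit of 4 bases, and those of Gm40204 a run of 30 bases that repeats a unit of 3. An exact tandem run of at least 24 bases, with a unit of 1 to 6 bases, was in 358 of all promoters (1.09%), in 2 of the 8 and in 3 of the 11. The peak region overlapped a tRNA or rRNA gene at 5 of the 8 promoters, the others of these being Gm40078, Agbl5 and Sacm1l. It did so at 7 of the 23 promoters touched in at least 1 library, and the share over all promoters was not computed. Neither such a gene nor a tandem run was found at 11 of the 23 promoters, 3 of the 11 and 1 of the 8. The 4 printed promoters therefore do not stand for all of them. CpG-rich promoters (GC of at least 55% and a CpG ratio, observed to expected, of at least 0.6) made up 30.3% of all promoters and 3 of the 8. The promoter measures, the motifs and the length of a counted run were chosen after these lists and sequences had been seen, and they are a description with no test.

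The Damage libraries listed far fewer H2AK119ub peaks than the Homeostasis libraries. Damage replicates 1, 2 and 3 held 31, 68 and 25 peaks, and Homeostasis replicates 1, 2 and 3 held 2000, 13487 and 7523. The longest Damage list was shorter than the shortest Homeostasis list, so the groups did not overlap. On the scale of log10(peaks + 1) the mean was 1.59 ± 0.223 (SD, n = 3) after paraquat and 3.77 ± 0.425 (SD, n = 3) after PBS, a difference of -2.18 (SE 0.277) or 152-fold in geometric means (two-sided exact permutation test over libraries, p = 0.1). That p is the smallest that 3 libraries against 3 can give, from 20 arrangements. Covered length behaved alike, at 3.16, 6.93 and 2.53 kb after paraquat and 202, 1371 and 764 kb after PBS, a 122-fold difference on the scale of log10(kb + 1) (exact permutation test, p = 0.1). The 1 kb added before taking logs lowers that fold, since the Damage lengths are only a few kb. Nearly every peak was a window of 101 bp (94.97% to 100% of a list), the widest was 201 bp, and the score was 1 for each peak, so the lists rank no site by strength. The number of reads behind each list is unknown, so a site missing from a list was not called in that library, and whether the mark itself was absent was not tested.

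**Figure D1:**
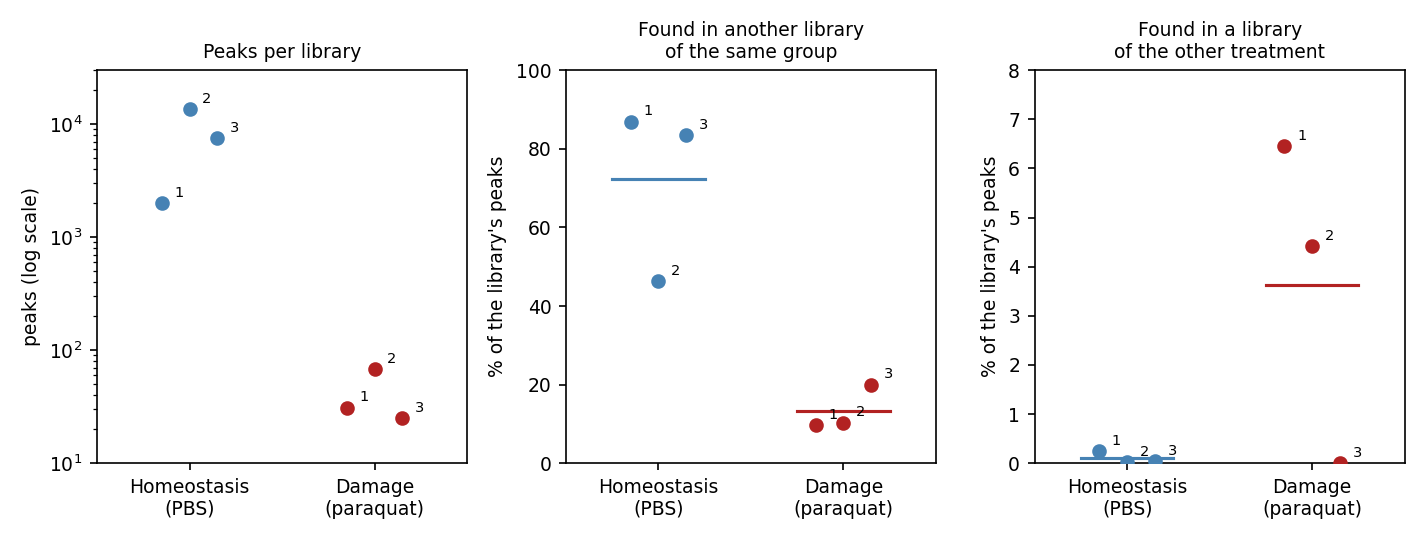
Number of H2AK119ub peaks per library on a log axis (left), percent of the peaks of a library that overlap a peak of another library of the same group (middle) and of any library of the other treatment (right). Each point is a library with its replicate number and each line is the mean of 3 libraries. The 25 to 68 Damage peaks sit below the 2000 to 13487 Homeostasis peaks, and at most 6.45% of a Damage list and 0.25% of a Homeostasis list lie under a peak of the other treatment.

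A larger share of each Homeostasis list than of each Damage list was found again in its own group. Such a share depends on how many peaks the other lists of the group offer, and the Damage lists offer far fewer. The shares therefore do not compare reproducibility between the treatments. Of the peaks in Homeostasis replicates 1, 2 and 3, 87.0%, 46.3% and 83.5% overlapped a peak of another Homeostasis library by at least 1 bp. The longest list had the lowest share, since 7237 of its sites were in no other library. In Damage replicates 1, 2 and 3 the shares were 9.68% (3 of 31 peaks), 10.3% (7 of 68) and 20.0% (5 of 25). Between treatments, 2 of 31 peaks of Damage replicate 1 (6.45%, exact 95% binomial interval 0.791% to 21.4%), 3 of 68 of replicate 2 (4.41%, 0.919% to 12.4%) and 0 of 25 of replicate 3 (interval up to 13.7%) overlapped a Homeostasis peak. These intervals cover counting error only.

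Merging the Homeostasis peaks gave 15083 regions in at least 1 library, 6341 in at least 2 and 1567 in all 3. A region was called kept where a peak of any Damage library overlapped it, and lost otherwise. The 3 Damage lists merge into only 116 regions, so most Homeostasis regions are lost by this rule wherever the Damage peaks lie. Of the 6341 regions in at least 2 libraries, 6338 were lost and 3 were kept (0.0473%, exact 95% binomial interval 0.00976% to 0.138%). All 3 were among the 1567 regions found in every Homeostasis library, where they made up 0.191% (0.0395% to 0.558%). None of the 4774 regions in exactly 2 libraries was kept, and 2 of the 8742 in a single library were. Each of the 5 kept regions was in Homeostasis replicate 1, the shortest of the 3 lists. The 1567 regions had a median width of 112 bp and a maximum of 387 bp. Counting peaks up to 1 kb apart as overlapping added 2 Damage peaks, 9 bp from a Homeostasis peak at chr10:3109964-3110064 and 0.34 kb from one inside the amylase gene Amy2a4.

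**Figure D2:**
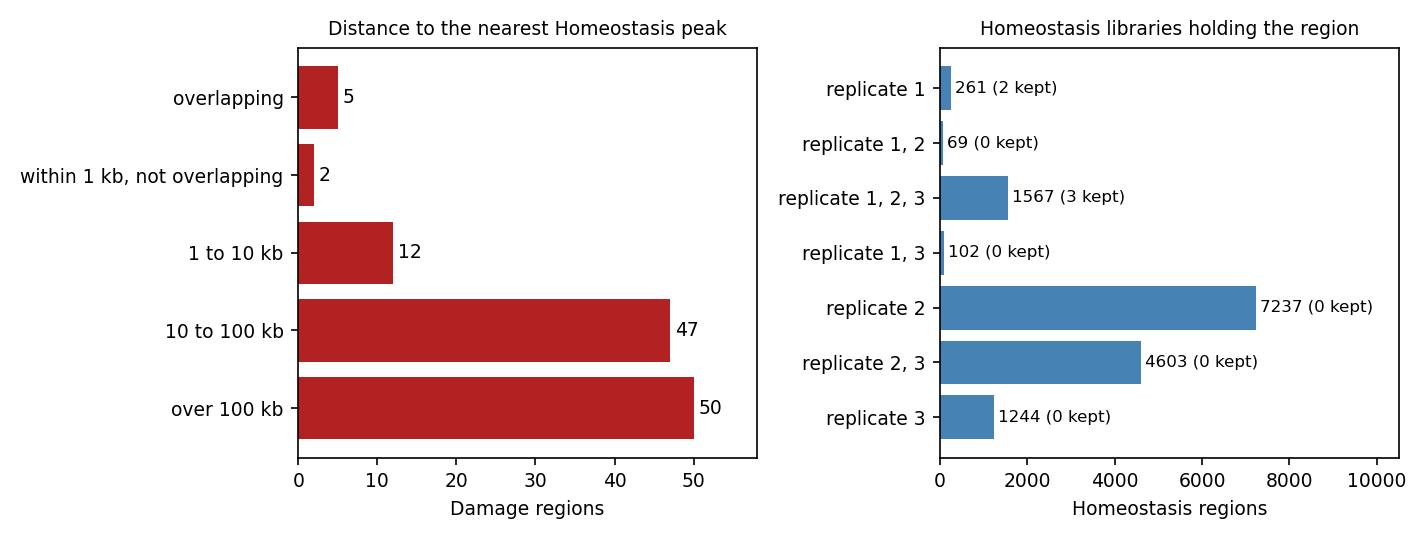
Left, number of the 116 Damage regions by distance to the nearest Homeostasis peak. Right, number of Homeostasis regions by the set of Homeostasis libraries that hold them, with the number kept after paraquat. Of the Damage regions 5 overlap a Homeostasis peak and 50 lie over 100 kb from one, and the kept regions are 3 of 1567 in all 3 libraries and 2 of 261 in replicate 1 alone.

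None of the 5 kept sites lay in or within 5 kb of a protein-coding gene. Damage replicate 1 held 2 of them, at chr1:12644751-12644851, 47.3 kb from Sulf1, a gene for an enzyme that edits heparan sulfate, and at chr2:60402750-60402850, 14.7 kb from Pla2r1, a phospholipase receptor gene. Damage replicate 2 held the others. Its site at chr14:88324784-88324884 lay in the lncRNA Gm33203, 140 kb from the protocadherin gene Pcdh20, and like the sites near Sulf1 and Pla2r1 it was in all 3 Homeostasis libraries. Its site at chr13:23397039-23397139 lay on the tRNA gene n-TIaat3 and its site at chr10:22448360-22448460 was 74.2 kb from Raet1d, a gene for a ligand of natural killer cells. Both of these were in Homeostasis replicate 1 only. No kept site was in more than 1 Damage library.

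The Damage peaks merged into 116 regions, of which 111 were in no Homeostasis list. Their median distance to the nearest Homeostasis peak was 67.1 kb, with 12 regions at 1 to 10 kb, 47 at 10 to 100 kb and 50 beyond 100 kb. The medians of Damage replicates 1, 2 and 3 were 57.0, 65.4 and 72.8 kb. Only 7 regions were in at least 2 Damage libraries, and none of these overlapped a Homeostasis peak. The single region in all 3 was at chrX:170859313-170859426, 181 kb from Asmt, the gene of the last enzyme of melatonin synthesis, which lies in the pseudoautosomal part of the X chromosome. A second region on that chromosome, at chrX:170828221-170828350 and 150 kb from Asmt, was in Damage replicates 1 and 2. So was the region at chrY:90819507-90819656, 74.4 kb from Gm52481. The remaining 4 were in Damage replicates 2 and 3. They lay in Drosha, which encodes the nuclease that trims primary microRNAs (chr15:12873190-12873297), in the ephrin receptor gene Ephb1 over the 5S rRNA pseudogene n-R5s88 (chr9:102127894-102127995), on the 5S rRNA gene n-R5s194 (chr3:4339030-4339134), and 18.9 kb from Ccser2 (chr14:36855928-36856034). The nearest Homeostasis peak was 199.9 kb from the Drosha region, 8.85 kb from the Ephb1 region and 9.42 kb from the Ccser2 region.

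Where the peaks lay also differed between the lists, measured as the percent of the peaks of a library whose centre fell in a class of location, which does not scale with the length of a list. Of the Damage peaks, 19.4%, 23.5% and 20.0% were in the body of a protein-coding gene, against 31.3%, 33.7% and 33.3% of the Homeostasis peaks, a difference of -11.8 points (SE 1.499). For lncRNA genes the values were 0%, 2.94% and 4.00% against 9.55%, 9.51% and 9.84% (-7.32 points, SE 1.201). Sites over 50 kb from any annotated gene went the other way, with 22.6%, 25% and 24% of Damage peaks against 14.0%, 16.9% and 16.3% of Homeostasis peaks (8.13 points, SE 1.12). In these 3 classes no Damage library overlapped a Homeostasis library (two-sided exact permutation test, p = 0.1 each, the smallest possible, and 0.275 after Benjamini-Hochberg adjustment over 11 classes). No class could pass a threshold of 0.05 with 3 libraries a group.

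**Figure D3:**
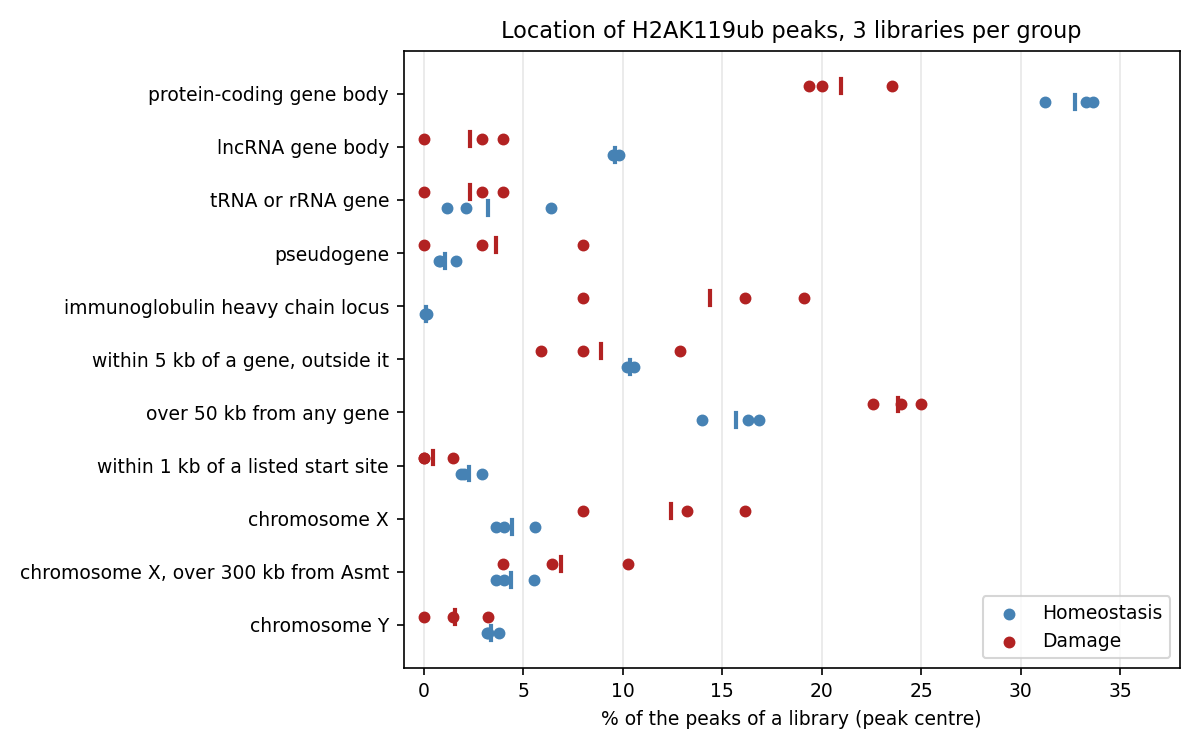
Percent of the peaks of each library whose centre lies in a class of location (horizontal axis, a class may overlap another), with 1 point per library and a vertical bar at the mean of 3 libraries. Damage points lie left of all Homeostasis points for protein-coding and lncRNA gene bodies and right of them for the immunoglobulin heavy chain locus, sites over 50 kb from any gene and chromosome X.

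For the body of any annotated gene the groups overlapped, at 41.3% ± 6.62 (SD, n = 3) after paraquat and 45.0% ± 1.64 (SD, n = 3) after PBS (exact permutation test, p = 0.5). That class includes the immunoglobulin heavy chain locus Igh, whose gene segments are rearranged in B cells. Its peaks numbered 5 of 31, 13 of 68 and 2 of 25 in the Damage lists, or 14.4% ± 5.75 (SD, n = 3), and 3 of 2000, 17 of 13487 and 7 of 7523 in the Homeostasis lists, or 0.123% ± 0.0286 (SD, n = 3). The Igh share was higher in every Damage library than in every Homeostasis library (exact permutation test, p = 0.1), and the class was added after the lists had been seen. The Damage peaks in Igh were 20 separate regions, none of them in 2 libraries, and none overlapped a Homeostasis peak. Without the peaks in antigen receptor loci and on tRNA and rRNA genes, the difference, Damage minus Homeostasis, was -13.4 points for any gene body, -8.39 points for protein-coding bodies and 12.5 points for sites over 50 kb from a gene (exact permutation tests, p = 0.1 each).

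Genes for tRNA and rRNA, short genes read by RNA polymerase III or I, held 0, 2 and 1 Damage peaks (0%, 2.94% and 4.00%) and 128, 156 and 160 Homeostasis peaks (6.4%, 1.16% and 2.13%). The counts of the Homeostasis libraries were close while their lists differed in length, and the groups overlapped (exact permutation test, p = 0.7). Of the Homeostasis regions in at least 2 libraries, 105 overlapped a tRNA gene and 43 an rRNA gene, and none of the 3 kept among them did. Peaks within 1 kb of a listed start site made up 0.490% ± 0.849 (SD, n = 3) of the Damage lists and 2.28% ± 0.585 (SD, n = 3) of the Homeostasis lists (exact permutation test, p = 0.1). That difference was -1.197 points, with overlapping groups and p = 0.3 in the exact test, once the peaks in receptor loci and on tRNA and rRNA genes were left out. Pseudogenes held 3.65% ± 4.05 (SD, n = 3) and 1.09% ± 0.486 (SD, n = 3) of the peaks, and the band within 5 kb outside a gene held 8.93% ± 3.601 and 10.4% ± 0.194 (SD, n = 3 each), with overlapping groups in both.

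By chromosome, the groups did not overlap for 7 of 21 chromosomes. Chromosomes 2, 9, 11, 16 and 19 had lower shares of the Damage lists and chromosomes 12 and X higher ones. The lower shares rest on few peaks, with 1, 1 and 0 on chromosome 2 and 0, 1 and 1 on chromosome 9. There were 0, 2 and 0 on chromosome 11, and 0, 1 and 0 on each of chromosomes 16 and 19. On chromosome 19 the Homeostasis shares were 1.85% to 2.17%, less than 1 peak makes up in Damage replicate 1 or 3. The lower shares were not tested. Chromosome 12, which carries Igh, held 16.1%, 23.5% and 8.00% of the Damage peaks and 4.40%, 4.63% and 4.27% of the Homeostasis peaks. The direction turned without the peaks in receptor loci and on tRNA and rRNA genes, to a difference of -2.58 points. Chromosome X held 5 of 31, 9 of 68 and 2 of 25 Damage peaks, or 12.5% ± 4.12 (SD, n = 3), against 4.44% ± 1.03 (SD, n = 3) after PBS (exact permutation test, p = 0.1). Leaving out 300 kb around Asmt, which hold the X regions shared by Damage libraries, the values were 6.92% ± 3.17 and 4.41% ± 1.01 (SD, n = 3 each), and the groups overlapped (exact permutation test, p = 0.3). Chromosome Y held 1, 1 and 0 Damage peaks, with overlapping groups (p = 0.2 in the exact test).

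**Figure D4:**
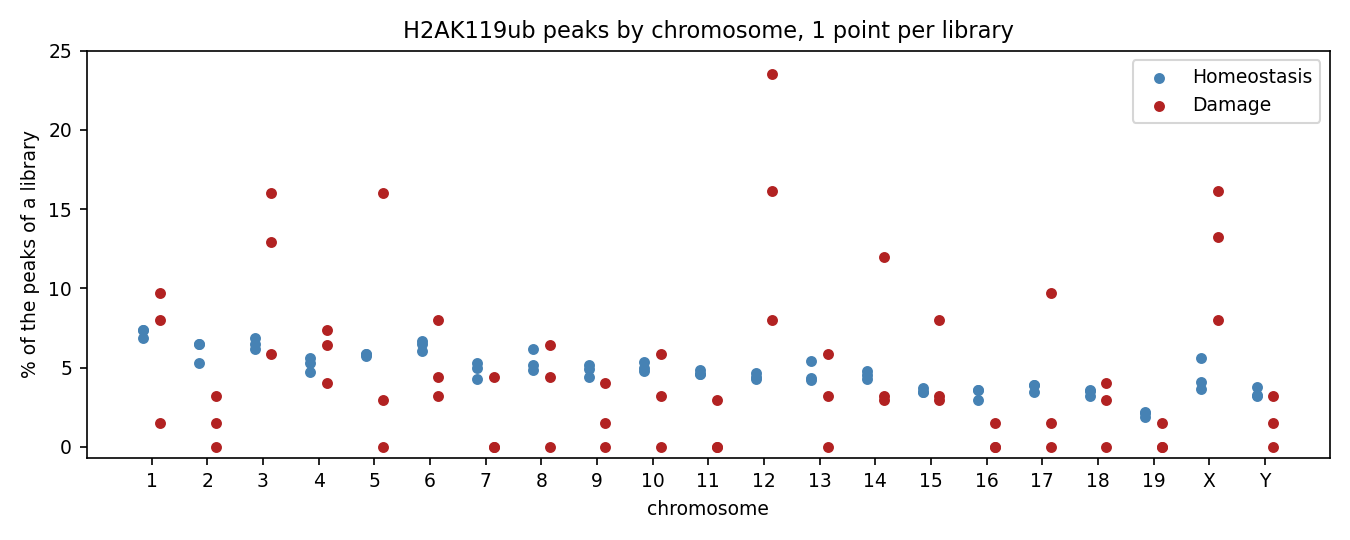
Percent of the peaks of a library on each chromosome, with 1 point per library. Homeostasis points lie close together on each chromosome, and Damage points, which come from 25 to 68 peaks, scatter from 0% to 23.5%, above all Homeostasis points on chromosomes 12 and X.

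Peaks were then assigned to 21887 protein-coding genes, a gene being counted in a library where a peak lay in its body or within 5 kb. Damage replicates 1, 2 and 3 marked 7, 21 and 7 genes and the Homeostasis libraries 727, 3651 and 2273. A gene was called lost where at least 2 Homeostasis libraries and no Damage library had a peak. There were 2097 lost genes (9.58% of all), of which 637 had a peak in all 3 Homeostasis libraries and 1932 (92.1%) had a single site shared by at least 2 of them. A gene was called kept where at least 2 Homeostasis libraries and at least 1 Damage library had a peak, which 10 genes did (0.0457%), and damage-only where no Homeostasis library had one, which 16 genes did (0.0731%). These classes are made from the contrast itself and carry no test. Only 33 genes had a Damage peak, so nearly every gene with peaks in at least 2 Homeostasis libraries is lost by this rule. Traits of the lost genes are therefore those of genes with repeated Homeostasis peaks.

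The lost genes were long. Their median length was 84.8 kb against 17.2 kb over all protein-coding genes and 13.9 kb for genes with no peak. In 10 classes of equal size by length, the share lost was 2.28% in the shortest class, 5.62% in the sixth, 15.9% in the ninth and 41.4% in the longest. The 10 kept genes were longer still, with a median of 613 kb, and the 16 damage-only genes had a median of 90.3 kb. In 44 lost genes every peak lay on a tRNA or rRNA gene, and in 55 at least 1 did.

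The lost genes were ranked by their lowest count over the 3 Homeostasis libraries, so that a gene had to hold several peaks in the shortest list too, and not by their total of peaks. The first 15 included regulators of mitochondria, splicing and cell adhesion. Ppargc1a, the coactivator PGC-1alpha that drives mitochondrial biogenesis, had 4, 10 and 7 peaks in Homeostasis replicates 1, 2 and 3 and none in a Damage library. These fell on 10 places in its 662 kb, 4 of them in all 3 libraries. Sgcz, the zeta member of the sarcoglycans that anchor the muscle membrane, had 4, 9 and 8 peaks, with 4 of 10 places in all 3 libraries. Rbfox1, a splicing regulator of heart, muscle and brain, had 3, 15 and 9 peaks on 16 places, 2 of which were in all 3 libraries. Hhat, the enzyme that attaches palmitate to Hedgehog ligands, had 3 peaks in each library, all on the same 3 places. Inpp4b, a lipid phosphatase of the phosphoinositide pathway, had 3, 10 and 5 peaks, with 3 of 10 places in all 3 libraries. Pde4d, which degrades cyclic AMP, had 3, 9 and 7 peaks. The heparan sulfate proteoglycan genes Gpc6 and Gpc5 had 3, 11 and 8 peaks and 2, 7 and 6 peaks. In each of these genes the count was lowest, or tied, in Homeostasis replicate 1, the shortest list.

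Genes of axon guidance and cell contact filled most of the other places in that ranking, each with 2 peaks in replicate 1. The netrin receptor gene Dcc had 2, 12 and 5 peaks, the Slit receptor gene Robo1 had 2, 9 and 7, and the IgLON adhesion gene Ntm had 2, 9 and 6. Ctnna3, the alpha-T-catenin of cardiac cell junctions, had 2, 14 and 7 peaks, and 3 of its 23 lay on a tRNA or rRNA gene. Lrp1b, of the lipoprotein receptor family, had 2, 13 and 4 peaks, the acid-sensing channel gene Asic2 had 2, 8 and 6, and Egfem1 had 2, 7 and 6. Between 4 and 7 places per gene were shared by at least 2 libraries in these 7 genes, and 1 or 2 by all 3. All 15 of these genes belonged to the longest length class, in which 41.4% of genes were lost.

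The lost genes were also ranked by peaks per kb of gene plus flanks. Of the first 10 genes, 7 had exactly 1 peak in each Homeostasis library, so their order follows gene length alone and the ranking itself brings up very short genes such as those of histones. Gas1, a Hedgehog-binding surface protein first known from growth arrest, had 2 peaks in each Homeostasis library on the same 2 places, at chr13:60169784-60170010 and chr13:60178102-60178227, 4.40 kb and 0.567 kb outside the gene. H4c1 and H4f16, which encode histone H4, had 1 peak each in every Homeostasis library inside the gene, at chr13:23761028-23761134 and chr6:136804107-136804210. The H4c1 site is also within 5 kb of H4c2, H3c1 and H1f1, so these 4 genes count 1 site. H2bc13 was counted through a site on the tRNA gene n-TMcat7, 4.63 kb away. Atp5h, a subunit of the mitochondrial ATP synthase, and Mrpl58, of the mitochondrial ribosome, shared their 3, 2 and 2 peaks, of which 5 lay on tRNA genes, 3 of them on n-TRtcg4. Ifna6, a type I interferon gene, had 1 peak per library 1.01 kb outside it.

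In all, 33 protein-coding genes had a Damage peak within 5 kb, 27 of them inside the gene, and Ephb1 and Drosha were those with a peak in 2 Damage libraries. Ephb1 had 0, 4 and 0 Homeostasis peaks and Drosha had none. The 10 genes called kept held no kept site: in each, the Damage peak was at another place than the Homeostasis peaks. Nrg3, a neuregulin ligand gene, had 2, 11 and 5 Homeostasis peaks and 1 peak in Damage replicate 3, which was 12.7 kb from the nearest of them. Arhgap15, a Rac GTPase-activating protein gene, had 1, 2 and 3 Homeostasis peaks and 1 in Damage replicate 2, and the scaffold gene Magi2 had 1, 4 and 1 and 1 in Damage replicate 3. Dmd, which encodes dystrophin, had 0, 6 and 5 Homeostasis peaks and 1 peak in Damage replicate 2, 475 kb from the nearest of them. The other 6 were Lingo2, Cadps2, Necab1, Sp110, Speer4a and Fam136a, each with no peak in Homeostasis replicate 1 and 1 peak in a single Damage library.

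The damage-only genes other than Drosha each rested on 1 peak of 1 Damage library, and 12 of them fell under the rule for named genes. Rb1, the retinoblastoma cell cycle inhibitor, had its peak in Damage replicate 3 at chr14:73280645-73280745, 205.5 kb from any Homeostasis peak. Damage replicate 2 had peaks in Fancc, of the Fanconi anaemia DNA repair pathway, in Pign, of glycolipid anchor synthesis, in Tanc2 and Itprid1, and in Tti2, which helps fold large kinases of DNA damage signalling. In the same library 1 peak lay in both Ifit1bl1 and Ifit3b, interferon-induced genes, and 1 in the phospholipid synthesis gene Chpt1, within 5 kb of the meiotic gene Sycp3. Its peak near Mier3 was 4.87 kb outside that gene. Macf1, which links actin to microtubules, had its peak in Damage replicate 1. The other 3, Mak16, which shares the Tti2 peak, Cldn34-ps and Zc3h12b, fell outside that rule and are named after their values were seen. The rule also named 6 genes with a peak in 1 Homeostasis and 1 Damage library at different places, Vwa8, Fbxl7, Sall3, Amy2a4, Gm13212 and Gm7827. With a window of 50 kb around the gene, Macf1, Tanc2 and Itprid1 had more Homeostasis than Damage peaks.

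The gene lists hold only a small part of the 2097 lost genes, so they give counts for chosen functions and not the functions of the lost genes as a whole. Each count is read beside the 9.58% of all protein-coding genes that were lost. As nearly every gene with repeated Homeostasis peaks was lost, these shares reflect where the Homeostasis peaks lay. Over 14 lists with 392 members, all of them matched, 67 members were lost (17.1%), none was kept and Rb1 alone was damage-only. Guidance and cell adhesion genes had 34 of 42 members lost, 21 of them with peaks in all 3 Homeostasis libraries, and a median length of 949 kb. The list was chosen with earlier results of these lists known and its members are far longer than most genes. Its share stands beside the 41.4% of the longest length class. That class has a median length of only 185 kb, so it does not match the list in length, and an excess beyond length was not tested. Opcml, an IgLON member like Ntm, had 1, 12 and 6 peaks. Of the 8 members not lost, 6 had a peak in a single Homeostasis library and 2 had none.

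**Figure D5:**
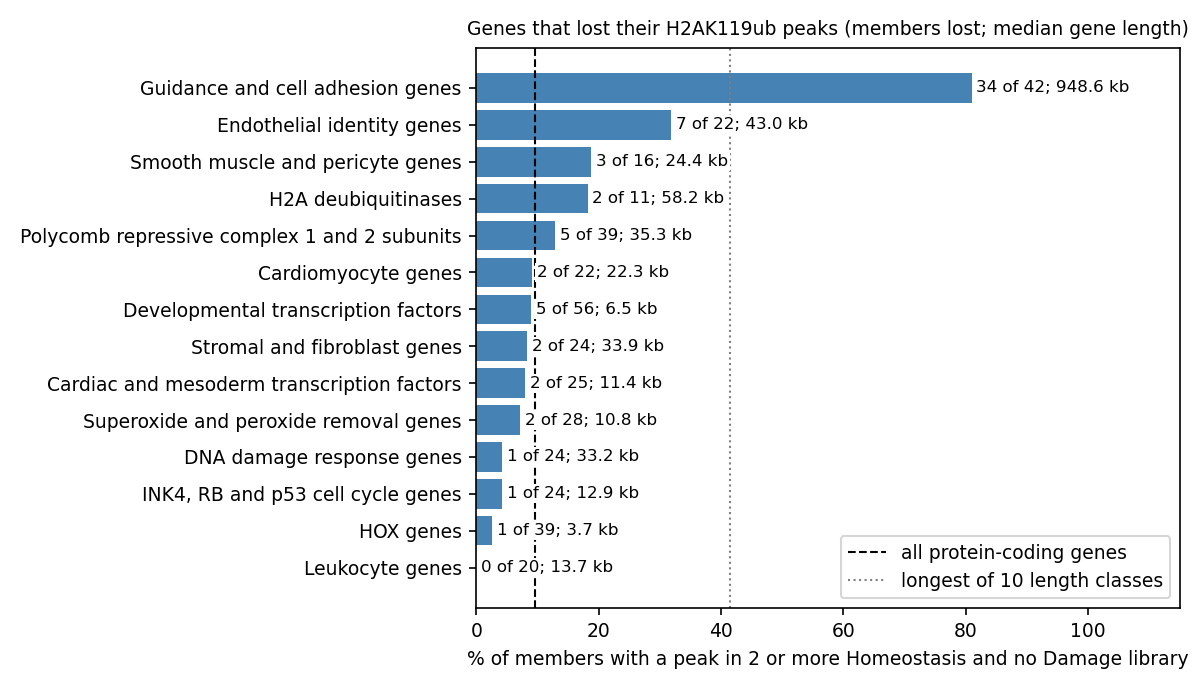
Percent of the members of each gene list that were lost, with the number of members and the median gene length beside each bar. The dashed line is the share over all protein-coding genes (9.58%). The dotted line is the share in the longest of 10 length classes (41.4%), whose median length is 185 kb. Guidance and cell adhesion genes, with 34 of 42 members lost and a median length of 949 kb, lie beyond the dotted line. The 20 leukocyte genes, with a median length of 13.7 kb, lie at 0.

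Among genes of the cells a Sca1+CD45- cardiac sort can hold, endothelial identity genes had 7 of 22 members lost, with a median length of 43.0 kb, where the length class with a median of 44.3 kb lost 9.05%. They were Pecam1 (61.1 kb), Flt1 (165 kb), Tie1 (18.7 kb), Emcn (90.0 kb), Vwf (134 kb), Erg (227 kb) and Ptprb (114 kb). Flt1, Vwf, Erg and Ptprb belong to the longest length class, in which 41.4% of genes were lost, and Emcn to the ninth (15.9%). Of the members not lost, Tek, Ets1 and Fli1 were longer than Ptprb. The share of this list was not matched to length gene by gene. Emcn, an endothelial surface mucin gene, had 1, 3 and 2 Homeostasis peaks inside the gene, Vwf, of the clotting factor von Willebrand factor, had 1, 2 and 1, and Flt1, a VEGF receptor gene, had 1 in each, all at chr5:147611461-147611575. Smooth muscle and pericyte genes had 3 of 16 lost (18.75%), Mylk of the longest length class, Myh11 of the ninth and Tpm2. Stromal and fibroblast genes had 2 of 24 lost (8.33%), near the 9.58% of all genes. Pdgfra, the receptor gene that marks cardiac fibroblast-lineage cells, had 1, 2 and 1 peaks, and the small proteoglycan gene Dcn had 0, 1 and 1. Cardiomyocyte genes had 2 of 22 lost (9.09%), the calcium channel genes Ryr2 (2, 3 and 2 peaks) and Cacna1c (0, 1 and 2). Both belong to the longest length class, and the share of the list is near that of all genes. Leukocyte genes had none of 20 lost and no peak in any of the 6 libraries. These genes are short, with a median length of 13.7 kb, and the length class with a median of 14.4 kb lost only 4.52%. In so short a list a count of 0 is therefore not read as a trait of leukocyte genes.

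Developmental regulators are the genes for which the mark is best known. HOX genes had 1 of 39 members lost, Hoxb1, with 0, 1 and 1 peaks at a place 1.30 kb outside the gene, and 33 had no Homeostasis peak. Other developmental transcription factors had 5 of 56 lost. These were Olig1 (1, 1 and 1 peaks), En2, Zic4 and Pax5 (0, 2 and 1 peaks each) and Pax7. The Olig1 site lay 4.495 kb outside the gene, and En2 had no peak inside the gene either. With gene bodies only, 2 of the 56 were lost. Cardiac and mesoderm transcription factors had 2 of 25 lost. Mef2c, needed for heart muscle genes, had 0, 3 and 2 peaks, and Wt1, of the epicardium, had 0, 1 and 1 at different places. The shares of these 3 lists were 2.56%, 8.93% and 8.00%, the last 2 near the 9.58% of all genes. Their genes are short, with median lengths of 3.74, 6.50 and 11.4 kb, and the length classes with medians from 2.85 to 14.4 kb lost 3.11% to 4.52% of their genes.

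Genes of the Polycomb complexes and of the erasers of the mark gave mixed counts. The Polycomb list also holds complex 2, whereas the mark is written by complex 1. Polycomb repressive complex 1 and 2 subunits had 5 of 39 genes lost. That share of 12.8% is near the 9.58% of all genes, and the median length of the list was 35.3 kb. The lost genes Auts2, Jarid2 and Bcor belong to the longest length class, in which 41.4% of genes were lost. Auts2, of a variant form of complex 1, had 2, 8 and 4 peaks in its 1106 kb, Jarid2, of complex 2, had 1, 2 and 2, and the corepressor gene Bcor had 1 in each library. Ezh2, the methyltransferase of complex 2, was also lost. Bmi1, Ring1 and Rnf2 had no peak in any of the 6 libraries. Of the H2A deubiquitinase genes 2 of 11 were lost (18.2%). They were Usp46 with 1, 2 and 1 peaks and Asxl2, whose product activates the deubiquitinase BAP1, with 0, 1 and 1. Both belong to the ninth length class, in which 15.9% of genes were lost.

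For genes of oxidative stress and growth arrest, superoxide and peroxide removal genes had 2 of 28 members lost (7.14%). Sod3, the extracellular superoxide dismutase, had 3, 1 and 2 peaks inside its 5.94 kb and none after paraquat, and 1 of its 4 places, at chr5:52368292-52368485, was in all 3 Homeostasis libraries. Cat, which encodes catalase, had 0, 1 and 1 peaks at different places, both outside the gene. INK4, RB and p53 cell cycle genes had 1 of 24 lost (4.17%), with a median length of 12.9 kb. The length class with a median of 14.4 kb lost 4.52%. The lost gene was Mdm4, a p53 inhibitor gene, whose 0, 1 and 1 peaks lay on the tRNA gene n-TKctt26, 3.36 kb away. Cdkn2a had no peak in any of the 6 libraries, and Cdk6 and Ccnd3 had 3 peaks each in Homeostasis replicate 2 alone. DNA damage response genes had 1 of 24 lost (4.17%), with a median length of 33.2 kb, and the length class with a median of 29.2 kb lost 6.67%. The lost gene was Prkdc, the kinase of DNA end joining, with 1 peak in every Homeostasis library at a shared place inside the gene. Prkdc belongs to the longest length class, in which 41.4% of genes were lost.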

How the data were processed

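Peak lists of 6 chromatin immunoprecipitation libraries were used, 3 per treatment. Per the submitters' processing notes, reads were aligned with Bowtie2 and HOMER 4.8 was used, on GRCm38. No source used here gives the cut-off for a peak, the use of Input or the read depth, and the 2 Input libraries were not analysed here. The deposited score was 1 in every row and ranked nothing. Coordinates are printed 1-based.

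Peaks were merged into regions where they overlapped by 1 bp or more. Genes and start sites came from RefSeq (GRCm38.p6, gene table), promoter sequences from the RefSeq promoter table, which covers 27025 genes. Values per library were compared by exact permutation in Python 3.11.15 (numpy 2.4.6, pandas 2.3.3, scipy 1.17.1), with Benjamini-Hochberg adjustment over 11 classes, and the scripts were tested on simulated lists. Intervals are exact Clopper-Pearson, 95%. The members and gene lists were chosen with earlier results of these data known. The Igh, chromosome 12 and start site classes, the window around Asmt and the filter on whole receptor loci were added after the lists had been seen.

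Named items were all Damage regions in 2 or more libraries, all Damage peaks overlapping a Homeostasis peak, and up to 30 genes with a Damage peak, ordered by Damage libraries, then Damage peaks, then Homeostasis libraries. They also were the 15 lost genes with the highest lowest count over the Homeostasis libraries, the 10 with the most peaks per kb, up to 4 members per list, and Cdkn2a, Bmi1, Ring1 and Rnf2. The values of 1 gene that this rule names are not reported here. Whether replicate numbers pair the libraries could not be settled. Deviations of chromosome shares correlated at 0.279, 0.0517 and 0.279 between same-numbered libraries, and from -0.245 to 0.125 between libraries of different numbers. These values rest on 21 chromosomes and short Damage lists, so they cannot decide it, and the main tests took the libraries as unpaired.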

Additional observations from a re-analysis of the deposited data

How the results depend on the processing

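The direction of the peak number and covered length differences held in every alternative run, and leaving out 1 library moved the log10 difference in peaks between -2.42 and -2.003. With the replicate block (exact sign flips over 3 pairs, smallest possible p 0.25) the difference stayed -2.18 with an exact p of 0.25. A tested difference was counted as held where its sign held, whatever its size, a count where it stayed within 1.5 times, and any other value where it moved by no more than 1 SD between libraries of a group. By these rules 222 values of the main results held, 26 moved and 5 turned, and of single genes and lists 743, 108 and 5. A held sign can hide a change in size: for any gene body the difference was -3.71 points, -13.4 without receptor loci and tRNA and rRNA genes, and -0.785 without Damage replicate 1. The share on chromosome 12 turned to -2.58 points without receptor loci and tRNA and rRNA genes. Shares near 0 turned when a library was left out: tRNA and rRNA genes 0.243 points without Damage replicate 1 and 0.672 without Homeostasis replicate 1 (range -1.95 to 0.672), the 5 kb band 0.0820 without Damage replicate 2 (-3.43 to 0.0820), and sequences outside assembled chromosomes -0.366 without Damage replicate 3 (-0.366 to 1.63). Lost regions numbered 1564 in 3 of 3 and 15078 in 1 or more libraries, kept regions 5 in 1 or more, and damage-only regions in 2 or more libraries 4 on autosomes. With 50 kb around genes, lost, kept and damage-only genes numbered 5818, 45 and 30, and lost list members 129. With all 3 Homeostasis libraries required, lost and kept genes numbered 637 and 3 and lost list members 36. With 1 or more, lost and kept genes numbered 3887 and 17. At 50 kb the mean Damage minus Homeostasis count was -0.333 for Itprid1, -1.33 for Macf1 and -0.667 for Tanc2. Without Homeostasis replicate 2 it was 0.667 for Ephb1 and 0.333 for Vwa8.

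Leaving out 1 library gave 1627 to 6340 lost regions, 1 to 3 kept, 53 to 113 damage-only regions and 1 to 7 of those in 2 or more libraries. Lost genes ranged from 653 to 2101, kept from 3 to 10 and damage-only from 4 to 22. The lowest counts came without Homeostasis replicate 2 (1656 lost regions, 653 genes) or 3 (1627 and 658), where both remaining lists must hold a site, and without Damage replicate 2 (53 damage-only regions, 1 in 2 libraries, 4 genes). Without Damage replicate 1, 1 region was kept, and without Damage replicate 3, 3 damage-only regions were in 2 libraries. Each Damage share rests on 25 to 68 peaks, which limits its precision.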
